A study of Mus musculus with 8 samples.

Results

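The families of carriers that move organic anions, organic cations and drugs across the hepatocyte membrane were followed in liver RNA from mice with mutated corepressors and from wild-type mice. All genes whose array symbol starts with Slco, Slc22a, Slc47a or Abcc were taken, each read by the probe set that names that gene alone. This gave 50 genes of the 19935 on the array, of which 38 belong to families grouped here as uptake (15 Slco and 23 Slc22a) and 12 to families grouped as efflux (2 Slc47a and 10 Abcc). Each of the 50 had 1 such probe set, so no choice between probe sets was involved.

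Transcripts were measured on 8 Affymetrix arrays, 1 per liver sample, of C57Bl/6 male mice, 10 to 12 weeks of age, on normal chow in a cycle of 12 h light and 12 h dark, and livers were taken at zeitgeber time 10. The NS-DADm group (4 samples) has both NCOR and SMRT mutated in the deacetylase-activating domain, through which each of these corepressors binds the histone deacetylase HDAC3 and switches on its activity, and the other 4 samples are wild type (WT). The labels give neither the zygosity nor whether each sample came from a separate animal, so the spread behind the p-values is that between samples and could be technical. Genotypes were taken from the labels, and the mutated transcripts themselves were not analysed here.

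Hepatocytes take up bile acids, steroid and thyroid hormone conjugates, drugs and other organic anions from sinusoidal blood through Slco carriers, and organic cations, carnitine and smaller anions through Slc22a carriers. After metabolism, Abcc pumps export conjugates by hydrolysing ATP, into bile at the canalicular membrane or back into blood at the sinusoidal membrane, and Slc47a carriers exchange cations for protons. Many of these genes are under the control of nuclear receptors, the proteins on which NCOR and SMRT act as corepressors, and in mouse liver several differ between the sexes under the control of growth hormone.

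None of the 50 transporter genes changed at an adjusted p under 0.05 by limma's moderated test, with p-values adjusted by Benjamini-Hochberg over the whole array. Over all genes 54 changed, a share of 0.271% (0.161% higher and 0.11% lower). The lowest adjusted p of a transporter was 0.177, for Slc22a18. Without NS-DADm replicate 4, the NS-DADm array nearest to WT for this gene, Slc22a18 passed the test (log2 fold change -0.32, adjusted p = 0.0425). In that fit 126 genes in all were called. With any other single array left out, the adjusted p of Slc22a18 was 0.196 to 0.429. An unadjusted p under 0.05 was reached by 8 of the 50, with 7 lower and 1 higher in NS-DADm livers, a share of 16%, beside 9.33% of all genes (5.6% lower and 3.72% higher).

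Most of the differences were small. The log2 fold change lay within 0.1 of 0 for 35 of the 50 genes (70%), beside 74.6% of all genes. The median of its standard error was 0.0748. Of the 24 transporters that reached the median level of all genes (7.59), 50% lay within 0.1, beside 63.6% of all such genes. Below that level it was 88.5% of 26 transporters. The 95% confidence interval excluded a change of 1.5-fold or more in either direction for 46 of the 50. That was 92%, beside 97.2% of all genes, and 87.5% beside 95.3% among genes that reached the median level. The 4 exceptions were Slc22a26, Slc22a7, Slco1a4 and Slc22a4, each with a wide spread among the arrays of at least 1 group. In all, 31 genes had values below 0 and 19 above 0, with a median of -0.014, while over all genes 55.7% were below 0 and the median was -0.011.

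**Figure D1:**
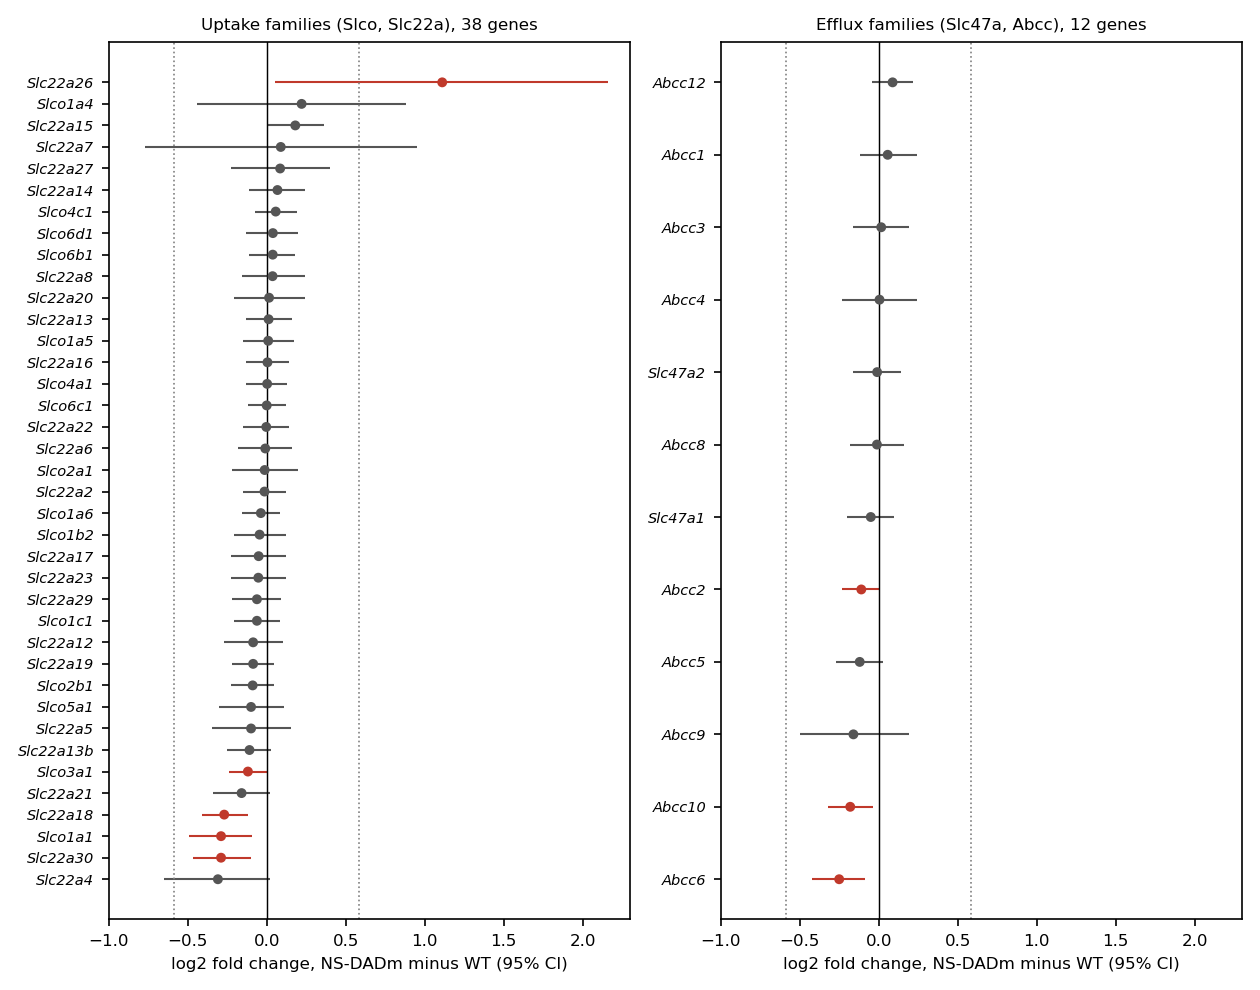
Log2 fold change (NS-DADm minus WT, x axis) of each of the 50 transporter genes with its 95% confidence interval from limma, for the 38 uptake genes on the left and the 12 efflux genes on the right. Dotted lines mark 1.5-fold, and red marks the 8 genes whose groups of 4 arrays do not overlap, 7 of them lower in NS-DADm and 1, Slc22a26, higher; no gene passed the adjusted test.

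In 7 genes all 4 NS-DADm arrays lay below all 4 WT arrays, namely Slco1a1, Slco3a1, Slc22a18, Slc22a30, Abcc2, Abcc6 and Abcc10, and in Slc22a26 they all lay above. Such separation was found for 3.83% of all genes in the lower direction and 1.8% in the higher. Of the 50 transporters, 14% were separated with NS-DADm lower. The separations were narrow. Between the closest arrays of the 2 groups the gap was from 0.0023 (Slco1a1) to 0.069 (Slc22a18) on the log2 scale in the 7 genes, and 0.14 in Slc22a26. The mean of each of the 7 reached the median gene level (7.59), as did that of 24 of the 50, and among all genes that reached it 5.66% were separated in this direction. With single arrays left out, 7 to 9 transporters were separated with NS-DADm lower and 1 or 2 with NS-DADm higher, while the share of all genes separated, with fewer arrays to compare, was 4.94% to 7.49% lower and 2.36% to 4.22% higher.

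**Figure D2:**
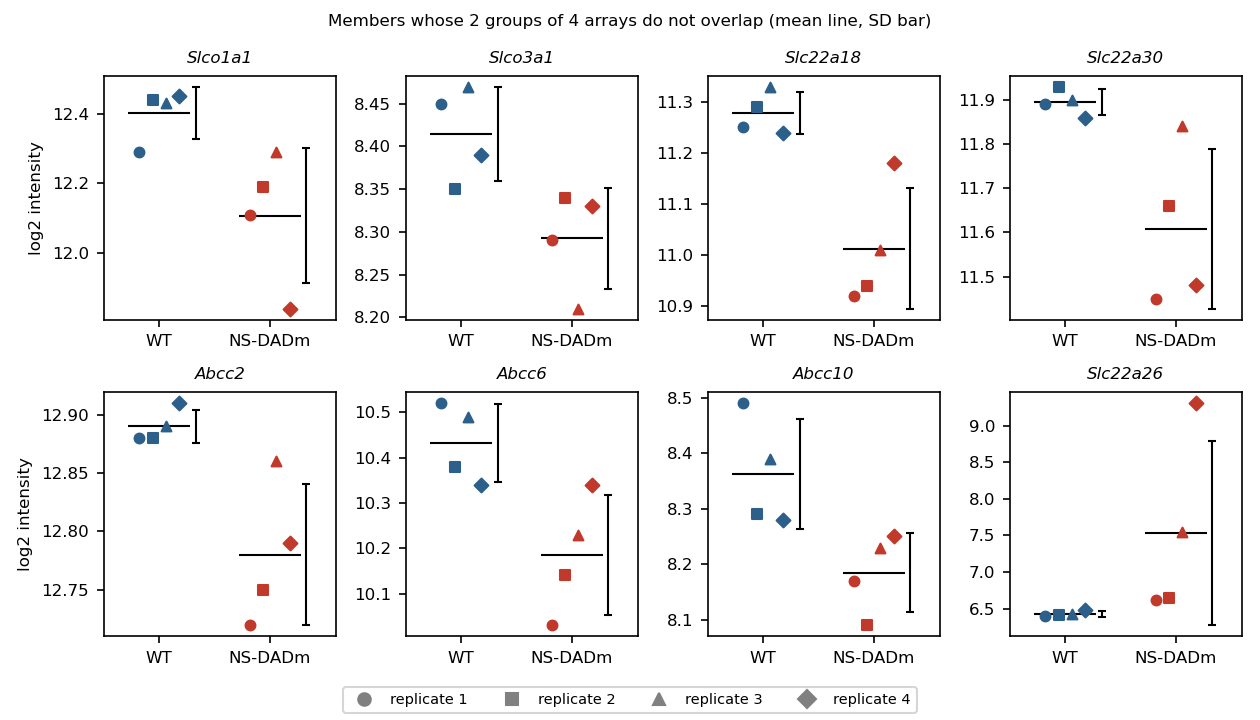
Log2 intensity (y axis, a scale of its own in each panel) of the 8 transporter genes whose groups do not overlap, by array, in WT (blue) and NS-DADm (red) livers; marker shapes give the replicate number, lines the mean and bars the SD over 4 arrays. The NS-DADm points lie below all WT points in 7 panels, by a gap of 0.0023 to 0.069, and above them in Slc22a26, where NS-DADm replicate 4 is at 9.31.

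Among the main uptake carriers of the sinusoidal membrane, Slco1a1 (Entrez Gene 28248), a carrier of bile acids and steroid conjugates that male mouse liver expresses more than female liver, read 12.11, 12.19, 12.29 and 11.84 in NS-DADm replicates 1 to 4 and 12.29, 12.44, 12.43 and 12.45 in WT replicates 1 to 4. The lowest reading was that of NS-DADm replicate 4, and NS-DADm replicate 3 touched WT replicate 1. Its log2 fold change was -0.29 (SE 0.0898, 95% confidence interval -0.49 to -0.095, adjusted p = 0.299), or 1.23-fold lower in NS-DADm, and did not pass the test. Without NS-DADm replicate 4 it was -0.20.

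Slco1a4 (Entrez Gene 28250) lies beside Slco1a1 on the genome, carries similar anions as well as cardiac glycosides, and is known for higher expression in female than in male mouse liver. Its values were 9.66, 9.67, 10.50 and 11.07 in NS-DADm replicates 1 to 4 and 9.59, 9.95, 10.52 and 9.96 in WT replicates 1 to 4. NS-DADm replicates 1 and 2 lay at the low end of the WT range, replicate 3 at its high end and replicate 4 above it. The log2 fold change of 0.22 (SE 0.299, adjusted p = 0.934) turned to -0.063 without NS-DADm replicate 4 and to -0.013 when arrays were weighted by their spread, so no direction can be given for this gene.

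Slco1b2 (Entrez Gene 28253), the main liver-specific carrier of the family and a route of bilirubin and statin uptake, was at 12.30, 12.20, 12.36 and 12.02 in NS-DADm and 12.28, 12.32, 12.28 and 12.18 in WT replicates 1 to 4. The groups overlapped, and the interval of the difference ran from -0.21 to 0.12 (log2 fold change -0.046, adjusted p = 0.953), which was 0.022 without NS-DADm replicate 4. Slco2b1, a carrier of sulfated steroids, read 10.60, 10.63, 10.54 and 10.52 in NS-DADm and 10.65, 10.80, 10.62 and 10.58 in WT (log2 fold change -0.09, adjusted p = 0.75). Here WT replicate 2 stood highest and the other arrays of both groups were mixed.

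The 6 neighbouring genes Slco1c1, Slco1b2, Slco1a4, Slco1a1, Slco1a6 and Slco1a5 did not share a direction, with log2 fold changes from -0.29 (Slco1a1) to 0.22 (Slco1a4). Slco1a5 and Slco1a6, at 0.0084 and -0.038, had means of 5.72 and 6.01, below the 25th percentile of gene levels (6.46). Probes for these close paralogs are open to signal from each other's transcripts, so the share of each is uncertain.

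Slco3a1, a widely expressed carrier of prostaglandins and thyroid hormone, read 8.29, 8.34, 8.21 and 8.33 in NS-DADm and 8.45, 8.35, 8.47 and 8.39 in WT replicates 1 to 4. The groups were separated by 0.007, with a log2 fold change of -0.12 (adjusted p = 0.525). Slco2a1, a prostaglandin uptake carrier of endothelial cells, read 10.56, 10.70, 10.75 and 11.00 in NS-DADm and 10.67, 10.67, 10.80 and 10.93 in WT. In each group the highest array was replicate 4 and the log2 fold change was -0.014 (95% confidence interval -0.22 to 0.20), which turned to 0.05 without NS-DADm replicate 1.

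In the same samples all 9 measured markers of sinusoidal endothelium had log2 fold changes below 0, with a median of -0.31. Of these, 7 had an unadjusted p under 0.05 and none passed the adjusted test. Over all genes 55.7% were below 0, and 5.6% were lower at an unadjusted p under 0.05. The mean level of the 9 markers ran from 9.07 (NS-DADm replicate 1) to 9.71 (NS-DADm replicate 4) in NS-DADm arrays. In WT arrays it ran from 9.57 to 9.76. In bulk liver, fewer cells of a type and less RNA per cell cannot be told apart. The part of endothelial content in the values of Slco2a1 was not tested.

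Of the Slc22a carriers of known substrates in liver, Slc22a5 (Entrez Gene 20520), the high-affinity carnitine carrier, read 8.77, 8.73, 9.15 and 9.10 in NS-DADm replicates 1 to 4 and from 8.81 (replicate 3) to 9.20 (replicate 4) in WT, with a WT mean of 9.04 ± 0.17 (SD, n = 4). The groups overlapped throughout (log2 fold change -0.10, 95% confidence interval -0.35 to 0.15, adjusted p = 0.914). Its neighbour Slc22a4, a carrier of the antioxidant ergothioneine, read 7.52, 7.82, 7.80 and 7.49 in NS-DADm and 8.08, 8.25, 7.48 and 8.08 in WT. WT replicate 3 lay below the NS-DADm arrays and the other 3 WT arrays above them. This gave a log2 fold change of -0.31 (adjusted p = 0.571), and without WT replicate 3 it was -0.48 (adjusted p = 0.166). The third gene of this cluster, Slc22a21, also a carnitine carrier, was at -0.16 (adjusted p = 0.597).

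Slc22a7 (Entrez Gene 108114), a carrier of organic anions and nucleotide metabolites, had the widest spread after Slc22a26. Its values were 9.94, 9.68, 9.68 and 7.82 in NS-DADm replicates 1 to 4 and 9.52, 9.38, 8.92 and 8.96 in WT replicates 1 to 4. In NS-DADm, 3 arrays lay above all WT arrays and replicate 4 lay below them all. Over all arrays the log2 fold change was 0.088 (SE 0.389, adjusted p = 0.99), and without NS-DADm replicate 4 it was 0.58.

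Slc22a18 (Entrez Gene 18400), an imprinted gene for a transporter whose substrates are poorly known, read 10.92, 10.94, 11.01 and 11.18 in NS-DADm and 11.25, 11.29, 11.33 and 11.24 in WT replicates 1 to 4. Every NS-DADm array was lower than every WT array, with replicate 4 the nearest. Its log2 fold change was -0.27 (SE 0.0644, 95% confidence interval -0.41 to -0.12, unadjusted p = 0.00183, adjusted p = 0.177), or 1.2-fold lower in NS-DADm. It was -0.32 to -0.24 when single arrays were left out.

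The remaining liver carriers of the family had values on both sides of 0 and did not pass the test. Slc22a15, a carrier of zwitterions, read 7.74, 7.61, 7.70 and 7.82 in NS-DADm and 7.33, 7.67, 7.65 and 7.51 in WT, with overlapping groups and a log2 fold change of 0.18 (adjusted p = 0.541). Slc22a23, which has no settled substrate, read 11.08, 10.95, 10.86 and 10.75 in NS-DADm and 11.10, 10.97, 10.89 and 10.89 in WT (log2 fold change -0.054, adjusted p = 0.941).

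A cluster of organic anion carriers held both the highest value of the 50 genes and 1 of the lowest. Its genes Slc22a19, Slc22a26, Slc22a27, Slc22a29, Slc22a30, Slc22a8 and Slc22a6 lie near each other in gene order. Slc22a26 (Entrez Gene 236149) was at 6.62, 6.65, 7.55 and 9.31 in NS-DADm replicates 1 to 4 and at 6.40, 6.41, 6.42 and 6.48 in WT replicates 1 to 4. The WT arrays were close together, NS-DADm replicates 1 and 2 lay just above them, and replicates 3 and 4 lay far above. The difference was 1.11 on the log2 scale, or 2.15-fold (SE 0.476, adjusted p = 0.502), and it was 0.51 without NS-DADm replicate 4. It was the 1 transporter of the 50 that differed by at least 1.5-fold, as 0.557% of all genes did.

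Slc22a30 (Entrez Gene 319800), a nearby carrier of the same cluster, read 11.45, 11.66, 11.84 and 11.48 in NS-DADm and 11.89, 11.93, 11.90 and 11.86 in WT. The NS-DADm arrays were all lower, by 0.013 at the closest, and spread more widely (SD 0.18 against 0.03). The resulting log2 fold change, -0.29, had an SE of 0.0836 and an adjusted p of 0.274. A further probe set that names Slc22a28, Slc22a29 and Slc22a30 together, fitted beside all genes as a check chosen after seeing the data, read 11.46, 11.58, 11.78 and 11.45 in NS-DADm and 11.84, 11.85, 11.82 and 11.92 in WT. It gave the same ranking of the 2 groups, with a log2 fold change of -0.29 (adjusted p = 0.206). The shared probe set names Slc22a30 too, so the 2 readings are not independent. The probe set of Slc22a29 alone had a mean of 5.43 and a log2 fold change of -0.063, and Slc22a28 had none of its own. Which of these genes the signal came from is uncertain and was not tested.

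The other 5 genes of the cluster lay between -0.087 (Slc22a19) and 0.084 (Slc22a27). Slc22a27 was at 4.82, 4.75, 5.10 and 5.45 in NS-DADm replicates 1 to 4, where the order of the high arrays matched that of Slc22a26, but WT arrays reached 5.14. These readings lay below the 25th percentile of gene levels.

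**Figure D3:**
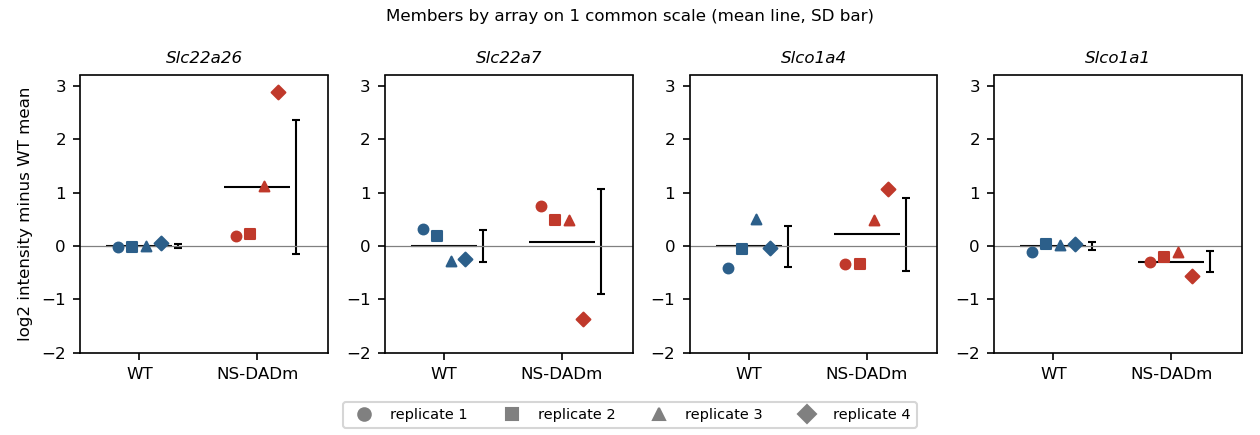
Log2 intensity minus the WT mean of the gene (y axis, the same scale in each panel) for Slc22a26, Slc22a7, Slco1a4 and Slco1a1 by array; marker shapes give the replicate number, lines the mean and bars the SD over 4 arrays. NS-DADm replicate 4 (diamond) is the highest NS-DADm array for Slc22a26 (9.31) and Slco1a4 (11.07) and the lowest for Slc22a7 (7.82) and Slco1a1 (11.84).

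NS-DADm replicate 4 was the lowest array of its group for 22 of the 50 transporters and the highest for 15, and among the WT arrays replicate 4 was the lowest for 23. For the 24 transporters that reached the median gene level, NS-DADm replicate 4 was an extreme of its group for 19, 10 times the lowest and 9 times the highest, against 14 for NS-DADm replicate 1. Both of these arrays also held the NS-DADm extremes of the endothelial, stellate and Kupffer cell markers. Kupffer cell markers had a mean level of 8.50 in NS-DADm replicate 1 and 9.59 in replicate 4, against 8.65 to 9.21 in WT arrays. The mean of 8 hepatocyte markers spanned less, at 13.55, 13.58, 13.59 and 13.60 in NS-DADm replicates 1 to 4 and 13.61 to 13.62 in WT, and its groups did not overlap. Of these 8 markers 4 had log2 fold changes below 0 and 4 above 0, the highest being 0.048 (Cps1, adjusted p = 0.887). The 2 markers Tat (-0.20, adjusted p = 0.427) and Serpina1c (-0.094, adjusted p = 0.613) were separated with NS-DADm lower, as were 3.83% of all genes. Median log2 fold changes were 0.091 for Kupffer cell, 0.18 for neutrophil, 0.061 for lymphocyte, 0.0053 for cholangiocyte and -0.015 for kidney tubule markers, with no marker past the test. The part of these differences in the transporter values was not tested.

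Of the efflux genes, Abcc2 (Entrez Gene 12780), the canalicular pump for bilirubin glucuronides and glutathione conjugates, read 12.72, 12.75, 12.86 and 12.79 in NS-DADm and 12.88, 12.88, 12.89 and 12.91 in WT replicates 1 to 4. All NS-DADm arrays were lower, by 0.023 at the closest. The log2 fold change was -0.11 (95% confidence interval -0.23 to -0.00061, adjusted p = 0.531), a difference of -7.6% in level on the linear scale.

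The sinusoidal pumps Abcc3 and Abcc4 export conjugates to blood and are known to rise in cholestasis. Abcc3 read 11.97, 12.10, 12.14 and 12.29 in NS-DADm and 12.06, 12.02, 12.28 and 12.08 in WT. Abcc4 read 7.83, 7.89, 8.01 and 8.33 in NS-DADm and 7.98, 7.88, 8.19 and 7.99 in WT. The groups overlapped for both, the log2 fold changes were 0.016 (95% confidence interval -0.16 to 0.19) and 0.0053 (-0.23 to 0.24), and both turned below 0 without NS-DADm replicate 4 (-0.039 and -0.10).

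Abcc6 (Entrez Gene 27421), a sinusoidal transporter through which hepatocytes release ATP and whose loss causes ectopic mineralisation, read 10.03, 10.14, 10.23 and 10.34 in NS-DADm and 10.52, 10.38, 10.49 and 10.34 in WT replicates 1 to 4. NS-DADm replicate 4 lay 0.0098 below WT replicate 4, and the other NS-DADm arrays lay below all WT arrays by more. The log2 fold change was -0.25 (SE 0.0743, 95% confidence interval -0.42 to -0.088, adjusted p = 0.281), or 1.19-fold lower in NS-DADm, and it was the largest difference among the 12 efflux genes. Slc47a1, the proton-coupled exporter of organic cations, read 11.06, 10.98, 11.12 and 10.91 in NS-DADm and 11.11, 11.17, 10.97 and 11.01 in WT, with mixed groups and a log2 fold change of -0.05 (adjusted p = 0.93).

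Among the more widely expressed Abcc pumps, Abcc10 read 8.17, 8.09, 8.23 and 8.25 in NS-DADm and 8.49, 8.29, 8.39 and 8.28 in WT, with the groups separated by 0.035 and a log2 fold change of -0.18 (adjusted p = 0.388). Abcc5, an exporter of cyclic nucleotides, read 7.30, 7.30, 7.33 and 7.45 in NS-DADm and 7.52, 7.30, 7.54 and 7.49 in WT (-0.12, adjusted p = 0.644). WT replicate 2 lay among the NS-DADm arrays there. Abcc1, a pump for glutathione conjugates, was at 0.057 (adjusted p = 0.939) with values of 6.96 to 7.29 in NS-DADm and 7.01 to 7.25 in WT, and Abcc12 was at 0.088 (adjusted p = 0.752).

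Abcc8 and Abcc9 belong to the family by sequence but are sulfonylurea receptors, the regulatory subunits of ATP-sensitive potassium channels, and export no known drug. Abcc9, which is also a gene of pericytes and other mural cells, read 8.66 in NS-DADm replicate 1, 8.97 in replicate 2 and 9.57 in replicate 4, with replicate 3 just above replicate 2, and 9.24, 9.28, 9.06 and 9.25 in WT replicates 1 to 4. NS-DADm replicates 1, 2 and 3 lay below the WT arrays and replicate 4 above them. The difference of -0.16 on the log2 scale (SE 0.155, adjusted p = 0.882) was -0.33 when the fourth NS-DADm array was left out and -0.025 when the first was. All 8 stellate cell and pericyte markers had log2 fold changes below 0 (median -0.17, 2 at an unadjusted p under 0.05 and none past the adjusted test). Over all genes 55.7% were below 0, and 5.6% were lower at an unadjusted p under 0.05. The mean level of these 8 markers was 8.86, 9.12, 9.22 and 9.68 in NS-DADm replicates 1 to 4 and 9.28 to 9.54 in WT arrays. Its part in the values of Abcc9 was not tested. Abcc8 was at -0.011 (adjusted p = 0.995) and changed sign when some single arrays were left out.

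**Figure D4:**
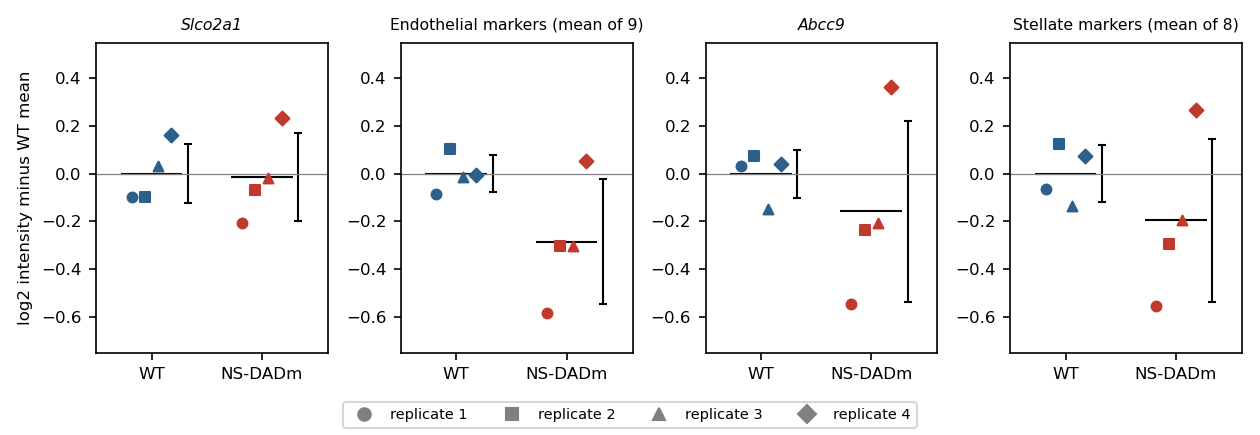
Log2 intensity minus its WT mean (y axis, the same scale in each panel) for Slco2a1, the mean of 9 sinusoidal endothelial markers, Abcc9 and the mean of 8 stellate cell and pericyte markers, by array; marker shapes give the replicate number, lines the mean and bars the SD over 4 arrays. In all 4 panels NS-DADm replicate 1 is the lowest and NS-DADm replicate 4 the highest of the NS-DADm arrays.

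The families of uptake and of efflux were then set side by side. Of the 38 uptake genes 23 had values below 0 and 15 above 0, with a median log2 fold change of -0.014 and a range of -0.31 to 1.11. Of the 12 efflux genes 8 were below 0 and 4 above 0, with a median of -0.031 and a range of -0.25 to 0.09. Neither direction of transport held a gene that passed the test. With NS-DADm lower, 4 uptake genes (10.5%) and 3 efflux genes (25%) were separated, beside 3.83% of all genes. Among genes that reached the median gene level these shares were 23.5%, 42.9% and 5.66%. In the higher direction 1 uptake gene was separated, and no efflux gene. The difference between the class medians was not tested.

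By array, the median over the uptake genes of the value minus the WT mean was -0.019, -0.024, -0.019 and -0.079 in NS-DADm replicates 1 to 4 and 0.039, -0.044, 0.031 and -0.069 in WT replicates 1 to 4. For efflux it was -0.15, -0.11, -0.017 and -0.047 in NS-DADm and 0.037, -0.045, 0.049 and -0.026 in WT. The groups overlapped in both classes. In efflux NS-DADm replicates 1, 2 and 4 lay below all WT arrays, replicate 4 only narrowly, and replicate 3 lay among them. Counting only genes that reached the median gene level, the medians were -0.087 for 17 uptake genes and -0.11 for 7 efflux genes, against -0.0083 for all such genes. Reaching that level (7.59) does not show expression in liver. The kidney carrier Slc22a12 (mean 8.18, log2 fold change -0.087) is 1 of the 17, and the kidney tubule marker Aqp2 read 8.02. Slc22a15 reached it only through the NS-DADm arrays, with means of 7.72 in NS-DADm and 7.54 in WT. By array, the 17 uptake genes then had medians of -0.13, -0.065, -0.065 and -0.13 in NS-DADm and 0.012, 0.013, 0.023 and -0.045 in WT. The groups did not overlap, with -0.065 and -0.045 the closest. Values by array for all genes at that level were not computed. For the 7 efflux genes they were -0.18, -0.14, -0.034 and -0.10 in NS-DADm and 0.031, -0.053, 0.025 and -0.027 in WT, and NS-DADm replicate 3 lay among the WT arrays. Over efflux genes of all levels, the median was -0.03 without Abcc8 and Abcc9, beside -0.031 for all 12.

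**Figure D5:**
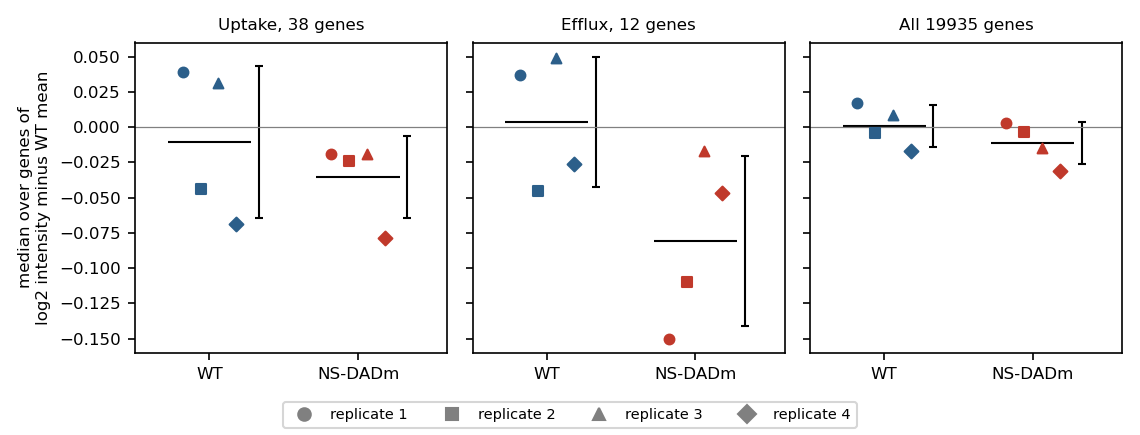
Median over genes of the log2 intensity minus the WT mean of each gene (y axis, the same scale in each panel) by array, for 38 uptake genes, 12 efflux genes and all 19935 genes; marker shapes give the replicate number, lines the mean and bars the SD over 4 arrays. WT and NS-DADm arrays overlap in each panel, and the lowest point is efflux in NS-DADm replicate 1 (-0.15).

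The other 24 transporters, given here by their range, lay between -0.16 and 0.08 on the log2 scale, with 22 of them within 0.1 of 0 and no adjusted p under 0.597. They include the kidney carriers Slc22a6, Slc22a8 and Slc22a12, the brain carrier Slco1c1 and the testis genes Slco6b1, Slco6c1 and Slco6d1. Of the 50 genes, 13 had a mean below the 25th percentile of gene levels, all of them in the uptake families. No detection call was given, so whether liver expresses these genes cannot be read from the values.

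Genes that act with these transporters also showed no call. None of 16 other hepatobiliary transporters passed the test (median -0.00047). At an unadjusted p under 0.05, 4 were lower and 1 higher, beside 5.6% and 3.72% of all genes. Separation with NS-DADm lower, found for 3.83% of all genes, was seen in 3 of the 16. These were Abcb1b (-0.20, adjusted p = 0.252), Abcg5 and Abcg8 (-0.26, adjusted p = 0.205). The largest values were those of Abcg2, a canalicular drug pump (10.12 ± 0.16 in WT and 9.82 ± 0.21 in NS-DADm, SD, n = 4, log2 fold change -0.29, adjusted p = 0.424), and Abcg5, a subunit of a sterol exporter (11.97 ± 0.08 and 11.72 ± 0.08, -0.26, adjusted p = 0.173). Of 8 scaffold and membrane anchoring genes none passed (median -0.014), with Slc9a3r2 at -0.20 (adjusted p = 0.351) and Myo5b at -0.069 (adjusted p = 0.853).

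Among 19 measured regulators of transporter genes none passed the test, and the median was -0.00066. At an unadjusted p under 0.05, 2 of the 19 were lower and 3 higher, beside 5.6% and 3.72% of all genes. Nr0b2, the bile acid-induced repressor, had the largest value, at 9.91 ± 0.62 in WT and 9.12 ± 0.78 in NS-DADm (log2 fold change -0.79, adjusted p = 0.571). Its difference was -0.45 without NS-DADm replicate 1 and between -1.09 and -0.63 with any other single array left out. Onecut1, a liver transcription factor, was at 9.38 ± 0.45 and 10.15 ± 0.55 (0.77, adjusted p = 0.388). Of 16 measured target genes of the xenobiotic receptors and of NRF2 none passed, and the median was 0.02. At an unadjusted p under 0.05, 1 of these 16 was lower and 4 were higher, beside 5.6% and 3.72% of all genes. The groups were separated for 1 with NS-DADm lower and for 4 with NS-DADm higher, beside 3.83% and 1.8% of all genes. Cyp2b10, the classic target of the constitutive androstane receptor, was at 0.56 (adjusted p = 0.576). Nqo1, an NRF2 target, read 7.48 ± 0.09 in WT and 7.93 ± 0.15 in NS-DADm (0.44, adjusted p = 0.0591), with all NS-DADm arrays above the WT arrays. It passed the test without NS-DADm replicate 4 (adjusted p = 0.046) or WT replicate 4 (0.0452). With any other single array left out it did not pass (adjusted p = 0.0863 to 0.242).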

How the data were processed

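Values were log2 intensities as deposited by the authors, for 28270 probe sets and 8 arrays, whose medians ran from 7.39 to 7.50. Tools named in the submitters' processing notes are RMA and Partek, with no order, version or setting. The log2 scale was read from the values (3.43 to 14.37), and folds hold only if that is right. Probe sets were named from the platform annotation, with symbols updated by Entrez Gene identifier (19852 of 19935 genes matched). Probe sets with several genes (1617) or no gene (4873) were left out, apart from the 1 probe set shared by Slc22a genes that is named in the text; a gene was read by its highest-mean probe set. No low-value filter was applied.

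NS-DADm and WT were compared by limma 3.58.1 under R 4.3.3 (lmFit, eBayes, two-sided, Benjamini-Hochberg over all genes, threshold 0.05); figures used Python 3.11.15 and matplotlib 3.10.9. The fit was tested on simulated data. Transporters in 5 roles (main hepatic uptake, other liver uptake, membrane efflux, other Abcc, sulfonylurea receptors), the 3 with the lowest p per direction and class, any called, and of each pathway list the called or the 2 largest were named; 2 genes of the roles were not analysed here. Alternatives were other probe set rules, filters, normalizations, variance models, array weights, a replicate block and each array left out. Members and lists were chosen with earlier results of these data known. The sources used here give no scan date or batch, and the number of arrays limits the precision.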

Additional observations from a re-analysis of the deposited data

Results flagged for a closer look

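In 3 of 116 groups of 4 arrays examined (the 50 transporters and the 8 named pathway genes), 1 array lay far from the other 3, where chance alone flags about 1 in 20 groups. For Slc22a21 the highest NS-DADm array, replicate 3, lay apart by 0.978 of the range of the group. For Slc22a7 the lowest NS-DADm array, replicate 4 at 7.82, lay apart by 0.877 of the range. For Abcg5 the lowest NS-DADm array, replicate 1, lay apart by 0.874 of the range.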

How the results depend on the processing

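The count of called transporters was 0 under each of the other processing alternatives and at an adjusted p under 0.1, with the lowest adjusted p of a transporter at 0.0622 with array weights, and 0 to 1 with single arrays left out. Over all genes 54 calls became 109 at an adjusted p under 0.1, 109 with array weights, 105 with a replicate block and 13 to 126 with single arrays left out. Same-numbered samples did not deviate together in every pair (correlations of 0.15, 0.05, -0.1 and 0.25 for numbers 1 to 4), so the numbers were not taken as pairs, and the block called no transporter. Restricted to genes that reached the median gene level, the class medians moved to -0.087 (uptake) and -0.11 (efflux), beside -0.0083 for all such genes. The transporters left out by this had medians of 0.0018 (uptake) and -0.0097 (efflux). With genes of all levels, single arrays left out gave -0.05 to -0.0032 (uptake) and -0.073 to -0.02 (efflux). Of 26 named transporters 19 kept their sign under every alternative run. Those that turned, none of them past the test, were Abcc3 (-0.013 with quantile normalization, -0.03 with array weights), Abcc4 (-0.07 with array weights), Slco1a4 (-0.013 with array weights) and, with single arrays left out, Abcc3 (-0.039 to 0.072), Abcc4 (-0.10 to 0.066), Abcc8 (-0.078 to 0.037), Slc22a7 (-0.13 to 0.58), Slco1a4 (-0.063 to 0.41), Slco1b2 (-0.093 to 0.022) and Slco2a1 (-0.10 to 0.05); the cause was not tested. Of the named pathway genes Nqo1 passed the test with that restriction, trended and robust variance, array weights and the replicate block (adjusted p = 0.0494, 0.0496, 0.0327 and 0.0225), and Onecut1 and Cyp2b10 passed it with the block alone (0.026 and 0.0387). No detection call was available, so signal over background limits what the low readings show.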
